A study of Sus scrofa with 48 samples.

Results

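The transcripts described here encode the proteasome: 43 genes for the subunits of its core and regulatory particles, the alternative catalytic subunits of the immunoproteasome, the caps that can replace the regulatory particle, and the factors that help to assemble the complex. They were chosen by gene name from the textbook composition of the complex, with earlier results of these data already known. Of the 43, 41 had a probe named for them on the array, and 40 had a probe bright enough to be analysed, out of 11106 genes analysed in all. *PSMD5*, an assembly factor of the regulatory particle, was represented by 1 probe that was too dim. *PSMA7*, a subunit of the core, and *POMP*, the factor that brings the core rings together, had no probe under their own name.

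Transcript levels were measured in dorsal subcutaneous adipose tissue (SCAT) of 48 castrated male Large White pigs, 1 array per pig. The pigs belonged to lines selected in opposite directions for residual feed intake (RFI), the feed eaten beyond what growth and maintenance predict, so that a low RFI animal is an efficient one. Each line was split between a diet rich in fat and fiber (HF, with plant oils and wheat straw) and one rich in starch with little fat (LF), with energy and protein matched by formulation. The pigs ate freely, and the study reports that HF pigs ate less and were lighter at the end, so that the diet contrast also holds these differences. Each of the 4 combinations of diet and line was represented by 12 pigs, all labelled as 132 days of age. The study gives final ages that differ slightly between the groups. A line here is a population under selection, so that any line difference holds all that the selection changed or fixed by chance.

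The proteasome degrades proteins that carry a ubiquitin chain. Its core is a barrel of stacked rings, with alpha subunits (PSMA) at the ends that gate the entry and beta subunits (PSMB) inside, 3 of which cut peptide bonds. A regulatory particle sits on the barrel. Its base holds a ring of ATPases (PSMC) that unfold the substrate and scaffold subunits that receive it, and its lid (PSMD subunits) removes the ubiquitin chain. Under interferon signalling, cells replace the catalytic subunits PSMB5, PSMB6 and PSMB7 with PSMB8, PSMB9 and PSMB10, the immunoproteasome, which changes the peptides cut for antigen presentation. The transcription factor NFE2L1 can raise the subunit genes together when proteasome capacity falls short, a response known in adipocytes too.

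Between 62.2% and 81.9% of the probes were well above background on each array (median 74.7%). Levels are log2 signals relative to the median kept probe of the same array, so that 0 is the level of that probe. Because probes bind with different strength, levels were compared between pigs and never between probes. A gene was called a differentially expressed gene (DEG) when the raw p was under 0.01, the fold change over 1.1 and the adjusted p under 0.08 (limma, Benjamini-Hochberg over all 11106 genes). The labels name separate pigs, so that the spread between arrays holds both animal and technical variation. All 6 adipocyte markers were well above background on every array. So were all 5 endothelial markers, all 5 fibroblast markers and 6 of 7 macrophage markers, so that this does not by itself identify the tissue. In whole tissue, fewer cells of a type and less RNA per cell cannot be told apart.

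The first question was whether the fat and fiber diet shifted the complex as a whole or only some of its parts. Of the 40 members, 10 were down-regulated by the HF diet and none was up-regulated, where 9.35% of all genes were called lower and 12.6% were called in either direction. The DEG were 5 of the 8 lid subunits (*PSMD7*, *PSMD8*, *PSMD11*, *PSMD12* and *PSMD14*), the scaffold subunit *PSMD1* of the base, the alpha subunits *PSMA1* and *PSMA5*, and the activators *PSME3* and *PSME4*. The study had already listed *PSMA1*, *PSMA5*, *PSMD1*, *PSMD7*, *PSMD8*, *PSMD12* and *PSME3* as lower under the HF diet, partly from these same samples. The count of 10 is thus no independent support for that list. All changes were small, between 1.104-fold for *PSMD11* and 1.19-fold for *PSMD14*. Among all 40 members, 35 lay below 0 (29 after quantile normalization), with a median log2 fold change of -0.10, while the median of all genes was -0.04 and 62.3% of them lay below 0.

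The number of DEG among the members depended on how the arrays were made comparable. Under 75th percentile scaling 3 of the 40 were lower and none higher, and after quantile normalization 2 were lower and 1 (*PSME1*) was higher, with 11.2% of all genes called in either case. With the position of the array on the slide as a block there were also 3, with 8.97% of all genes called. Under these settings the share of members called in either direction was below the background, and the share called lower was near it (3, 2 and 3 of 40 members beside 745, 755 and 726 of 11106 genes). The scaling also moved the split over all genes, which was 365 higher and 1038 lower with median centring, 495 and 745 with the 75th percentile, and 491 and 755 after quantile normalization. *PSMD1* and *PSMD12* were called under each of the 15 alternative settings that used both scan dates. *PSMD7* was called under 14 of them, all but quantile normalization. With the fits within each of the 2 scan dates added, each of these genes kept its call in 16 of 17 settings. The log2 fold change of each of the 10 DEG stayed below 0 in all 15 settings and within each of the 2 scan dates, but its size did not always hold. After quantile normalization *PSMA1* gave -0.10, *PSMD8* -0.10 and *PSMD11* -0.08, and *PSMA5* gave -0.12 when its probes were averaged. Within the first scan date *PSMA5* gave -0.12, *PSMD11* -0.09 and *PSME4* -0.13.

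**Figure D1:**
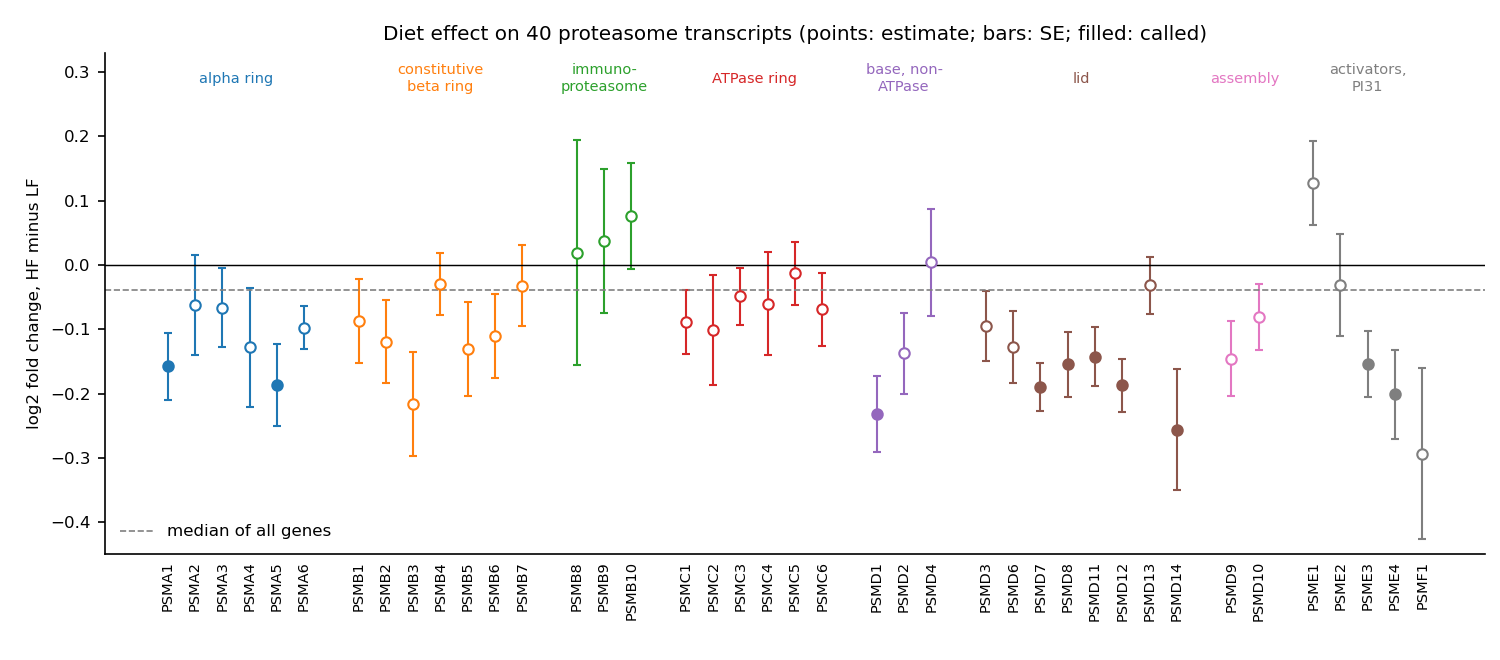
Log2 fold change by diet (HF minus LF, vertical axis) of the 40 proteasome transcripts, grouped by subunit class. Points are estimates over 48 pigs, bars are standard errors, filled points are the 10 DEG and the dashed line is the median of all genes (-0.04). The lid holds 5 of the filled points, and the 3 immunoproteasome subunits lie above 0.

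In the lid 5 of 8 subunits were DEG, with a median log2 fold change of -0.15 and all 8 below 0 (7 after quantile normalization). The lid count fell to 2 under 75th percentile scaling and the position block and to 1 after quantile normalization, while *PSMD1* of the base was called in each of them. *PSMD7* and *PSMD14* form the pair at its centre, in which PSMD14 is the enzyme that cuts the ubiquitin chain from the substrate and PSMD7 its inactive partner. The level of *PSMD7* ran from 4.34 through a median of 4.62 to 4.79 in the 24 HF pigs and from 4.56 through 4.77 to 4.99 in the 24 LF pigs. The ranges overlapped, yet 23 of 24 LF pigs lay above the HF mean and a single HF pig above the LF mean. The log2 fold change was -0.19 (SE 0.04, with a limma adjusted p = 0.00072), the smallest adjusted p of the members.

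*PSMD12*, a structural subunit of the lid, was nearly as well separated. Its level ran from 1.11 (median 1.31) to 1.48 in HF pigs and from 1.20 (median 1.49) to 1.82 in LF pigs, so that 0 of 24 HF pigs reached the LF mean. Its log2 fold change was -0.19 (SE 0.04, with a limma adjusted p = 0.00188), and its other probe gave -0.23. *PSMD14* had the largest change among the DEG but also a wide spread, from 2.58 (median 3.49) to 3.86 in HF pigs and from 3.06 (median 3.72) to 4.31 in LF pigs. Its log2 fold change of -0.26 (SE 0.09, adjusted p = 0.0674) was close to the threshold and was called in 5 of the 15 settings, over which it lay between -0.27 and -0.21. The array carried a spot of the identical sequence under another name, which gave -0.27 and an adjusted p of 0.0945 in the fit over probes, and the remaining probe of the gene gave -0.23 with an adjusted p of 0.0775 and a raw p of 0.0111, so that neither passed.

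The remaining lid DEG were *PSMD11*, which links lid and base, and *PSMD8*. *PSMD11* had a median level of 5.42 (4.9997 to 5.67) in HF pigs and 5.58 (5.27 to 5.79) in LF pigs, which made a log2 fold change of -0.14 (SE 0.05, with a limma adjusted p = 0.037). *PSMD8* had a median of 3.63 (3.38 to 4.06) in HF pigs and 3.85 (3.37 to 4.09) in LF pigs, which made a log2 fold change of -0.15 (SE 0.05, adjusted p = 0.0405). For each of these genes 19 of 24 LF pigs lay above the HF mean. *PSMD13*, at the other end of the class, had medians of 6.17 in HF pigs and 6.22 in LF pigs, a log2 fold change of -0.03 with a 95% interval from -0.12 to 0.06. *PSMD3* and *PSMD6* gave -0.10 and -0.13 and were not called.

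In the base, *PSMD1*, a large scaffold on which ubiquitin receptors dock, had a level from 4.48 (median 5.12) to 5.37 in HF pigs and from 4.85 (median 5.27) to 5.56 in LF pigs. Its log2 fold change was -0.23 (SE 0.06, with a limma adjusted p = 0.00833), and 21 of 24 LF pigs lay above the HF mean. *PSMD2*, the scaffold beside it, gave -0.14 (SE 0.06, adjusted p = 0.156). *PSMD4*, itself a ubiquitin receptor, gave 0.00 (SE 0.08), with a median of 3.72 in HF pigs and 3.801 in LF pigs, while the mean levels were 3.75 in both. The 6 ATPases were all below 0 (5 under 75th percentile scaling and 4 after quantile normalization) and none was called. They ranged from -0.10 for *PSMC2* (SE 0.09, adjusted p = 0.481) to -0.01 for *PSMC5* (SE 0.05, adjusted p = 0.898), with a median of -0.06.

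Probe stretches of the regulatory particle genes with the firmest or largest change are given so that the spots can be recognised. Each shows bases 1 to 30 of a probe of 60 bases, as the array files list them, with no bases in capitals.
PSMD7, probe O4250: gggcttgggatccagctcaatatattgttt
PSMD12, probe A_72_P371733: caatctatgacactccgtgtatacaggcag
PSMD14, probe A_72_P471483: gtcagggtctttgcagattccaaagttgta
PSMD1, probe A_72_P628522: agattttacagccttgtattggaaatgcct

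In the alpha ring, 2 of 6 measured subunits were DEG and all 6 lay below 0, with a median of -0.11. *PSMA1* had a level from 3.76 (median 4.20) to 4.47 in HF pigs and from 4.08 (median 4.39) to 4.71 in LF pigs, which made a log2 fold change of -0.16 (SE 0.05, with a limma adjusted p = 0.0418). *PSMA5* had a level from 3.08 (median 3.88) to 4.22 in HF pigs and from 3.66 (median 3.99) to 4.29 in LF pigs, which made a log2 fold change of -0.19 (SE 0.06, adjusted p = 0.0496). In each, 19 of 24 LF pigs lay above the HF mean, and the ranges of the diets overlapped. *PSMA6* had an adjusted p of 0.0497 but a fold change of 1.07, under the cut-off. *PSMA2* changed least, by -0.06 (SE 0.08, adjusted p = 0.658), with medians of 0.80 in HF pigs and 0.92 in LF pigs.

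The choice of probe decided the call for *PSMA4*. Its brightest probe gave -0.13 (SE 0.09, adjusted p = 0.397), while its other probes gave -0.16 (SE 0.06, adjusted p = 0.0554) and -0.15 (SE 0.05, adjusted p = 0.0434) and were both called in the fit over all 44356 probes, where 7.44% were called lower. In that fit 97 of the 119 kept probes of the members were below 0, and 19 were called lower and 0 higher. The other 14 kept probes of the 7 DEG with several probes were all below 0, and 7 of them were called. These probes are not independent, since *PSMD1* alone gave 7 of the 14 and 4 of the calls. Probes of a gene can also overlap, by up to 56 of 60 bases in *PSMD1*, 36 in *PSMD11* and all 60 in *PSMD14*. Genes with many probes also weigh more in the 119, such as *PSMB4* with 12 and *PSMC6* with 9.

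None of the 7 constitutive beta subunits was called, although all 7 were below 0 (5 after quantile normalization), with a median of -0.11. *PSMB3*, a structural subunit, had a level from 1.45 (median 1.88) to 2.29 in HF pigs and from 1.33 (median 2.04) to 2.87 in LF pigs. Its log2 fold change was -0.22 (SE 0.08, adjusted p = 0.074), larger than that of most DEG, but its raw p of 0.0104 lay just over the cut-off, and it was called in 8 of the 15 settings. *PSMB4*, which is needed for the rings to join, changed least of the class, by -0.03 (SE 0.05, adjusted p = 0.744), and had medians of 6.71 and 6.74.

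**Figure D2:**
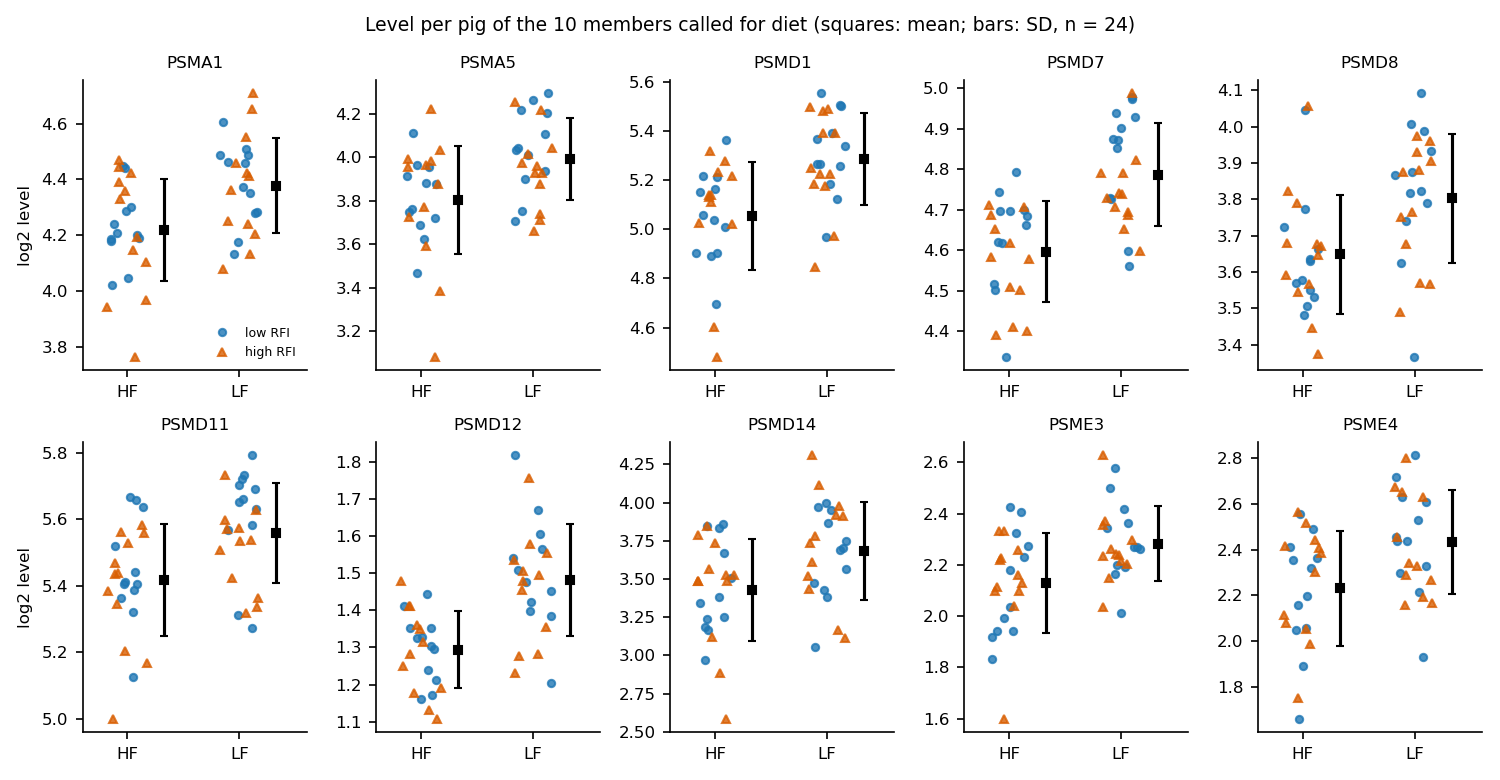
Log2 level (vertical axis) of the 10 DEG in each of the 48 pigs under the HF and LF diets, with low RFI pigs as circles and high RFI pigs as triangles. Squares and bars are the mean and SD of 24 pigs. Every panel shows a lower mean in HF pigs and ranges that overlap, with *PSMD7* and *PSMD12* the best separated.

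The activators cap the core in place of the regulatory particle. Together with *PSMF1*, 4 of the 5 genes of this class lay below 0 and 2 were DEG, with a median of -0.15. Differences between its members were not tested. *PSME3*, the nuclear activator, had a level from 1.598 (median 2.14) to 2.42 in HF pigs and from 2.01 (median 2.26) to 2.63 in LF pigs, which made a log2 fold change of -0.15 (SE 0.05, with a limma adjusted p = 0.0453), with 22 of 24 LF pigs above the HF mean. *PSME4*, a large single-chain activator, had a level from 1.66 (median 2.31) to 2.56 in HF pigs and from 1.93 (median 2.44) to 2.81 in LF pigs, which made a log2 fold change of -0.20 (SE 0.07, adjusted p = 0.0516). *PSME1* and *PSME2* encode the activator that interferon induces, and neither was called. *PSME1* had a level from 4.35 (median 4.53) to 5.26 in HF pigs and from 4.11 (median 4.47) to 4.97 in LF pigs, which made a log2 fold change of 0.13 (SE 0.07, adjusted p = 0.209), the highest of the 40 members. *PSME2* had medians of 5.05 and 5.12, and its log2 fold change was -0.03 with a 95% interval from -0.19 to 0.13. *PSMF1*, which encodes the inhibitor PI31, gave the lowest value, -0.29 (SE 0.13, adjusted p = 0.148), but on a probe so dim that it was well above background in only 5 of 12 HF high RFI pigs.

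Among the assembly factors, *PSMD9* gave -0.15 (SE 0.06, adjusted p = 0.0981), with medians of 3.32 in HF pigs and 3.44 in LF pigs. *PSMD10* gave -0.08 (SE 0.05, adjusted p = 0.326), with medians of 1.26 and 1.32. *POMP* and *PSMA7* can be seen only through probes that the array describes as resembling the bovine proteins. The probe for *POMP* gave -0.13 (SE 0.12, adjusted p = 0.525) by diet and the probe for *PSMA7* gave -0.10 (SE 0.09, adjusted p = 0.531). These probes carry no gene symbol in the tables used and were not counted among the 40.

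The immunoproteasome subunits were the only beta subunits above 0 by diet, and none of the 3 was called. *PSMB8* varied widely between pigs, from 1.07 (median 1.49) to 3.01 in HF pigs and from 0.98 (median 1.51) to 3.34 in LF pigs, and its log2 fold change was 0.02 with a 95% interval from -0.33 to 0.37. *PSMB9* had a level from 3.23 (median 3.64) to 4.54 in HF pigs and from 3.11 (median 3.65) to 4.66 in LF pigs, a log2 fold change of 0.04 with an interval from -0.19 to 0.26. *PSMB10* had a level from 4.03 (median 4.46) to 5.04 in HF pigs and from 3.97 (median 4.29) to 5.10 in LF pigs, a log2 fold change of 0.08 with an interval from -0.09 to 0.24. The direction of *PSMB8* and *PSMB9* was not stable, since both fell below 0 without the 5 arrays on which under 70% of probes were well above background. Of these arrays 4 were of HF pigs (3 of them high RFI) and 1 of an LF pig, so that this sign of array quality was not even between the diets, and without them 10 members were again called lower, 9 of them among the 10 DEG. Of their constitutive partners, *PSMB5* gave -0.13 (SE 0.07, adjusted p = 0.256), *PSMB6* -0.11 (SE 0.07, adjusted p = 0.288) and *PSMB7* -0.03 (SE 0.06, adjusted p = 0.79).

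To see whether the balance of catalytic transcripts shifted, each immunoproteasome transcript was set against that of the subunit it replaces in the same pig. Transcripts of whole tissue cannot show which subunits are built into the core of a cell. The difference of 2 probes on an array is free of array scaling, but its size holds no information on which transcript is more abundant. The spots compared begin as follows, bases 1 to 30 of 60, with no bases in capitals.
PSMB8, probe A_72_P444948: tgttcatgccactcatcgagacagctattc
PSMB5, probe A_72_P593534: aatgtagctgatctacacgacaagtatagt
PSMB9, probe A_72_P035551: tctatgacgagtgactcttcctcagacctc
PSMB6, probe O9283: gagaccagattcccaaattcaccattgcca
PSMB10, probe A_72_P644145: gagctggtggaagaaactgtgcaggccatg
PSMB7, probe A_72_P607493: atcttcaatgacctggggtctggaagtaac

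By diet, *PSMB8* minus *PSMB5* averaged -1.85 ± 0.64 (SD, n = 24) in HF pigs and -2.00 ± 0.75 in LF pigs, a difference of 0.15 with a 95% interval from -0.25 to 0.55 (permutation test, two-sided, p = 0.443, adjusted over 6 comparisons p = 0.443). *PSMB9* minus *PSMB6* differed by 0.15 (interval -0.15 to 0.44, adjusted p = 0.357) and *PSMB10* minus *PSMB7* by 0.11 (interval -0.10 to 0.32, adjusted p = 0.357). All 3 differences lay above 0, with intervals that included 0, and in the pairs of *PSMB8* and *PSMB9* most of the difference came from the lower level of the constitutive partner in HF pigs.

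The same differences were then compared between lines, as low minus high RFI. *PSMB8* minus *PSMB5* ran from -3.03 (median -2.37) to 0.24 in low RFI pigs and from -2.74 (median -1.72) to -0.62 in high RFI pigs, a difference of -0.48 (SE 0.19, permutation p = 0.0155, adjusted p = 0.0932). *PSMB9* minus *PSMB6* ran from -3.18 (median -2.47) to -1.06 in low RFI pigs and from -2.67 (median -2.15) to -1.25 in high RFI pigs, a difference of -0.30 (SE 0.14, permutation p = 0.0371, adjusted p = 0.111). *PSMB10* minus *PSMB7* differed by -0.12 (SE 0.10, permutation p = 0.235, adjusted p = 0.357). The ranges of the lines overlapped, and none of the 6 comparisons passed an adjusted p of 0.05.

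**Figure D3:**
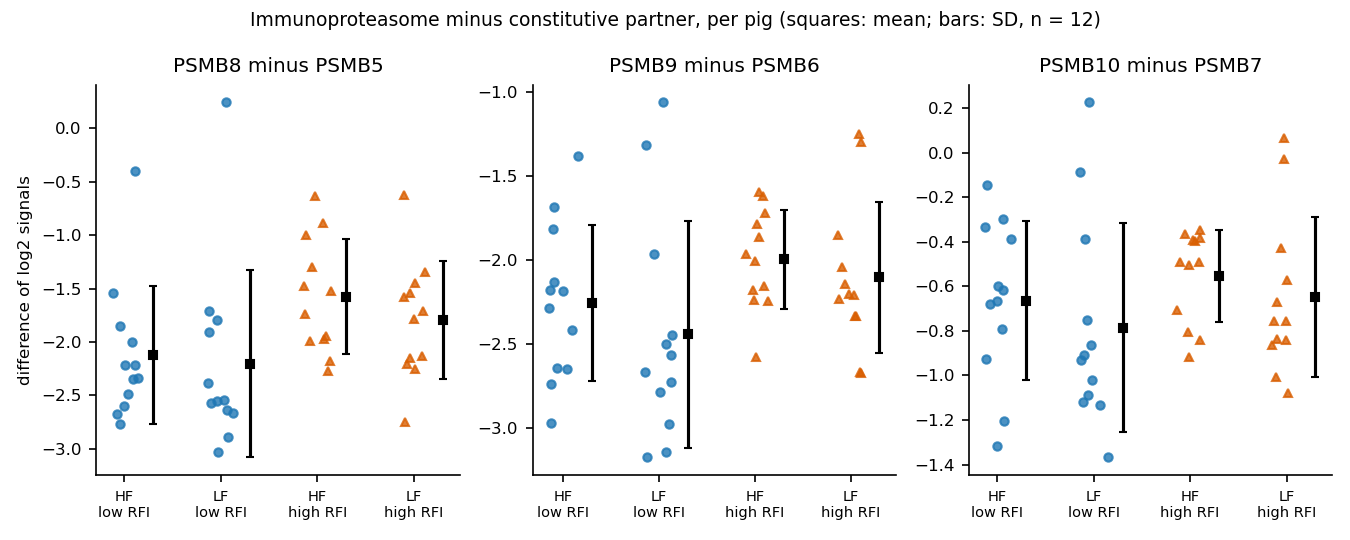
Difference of log2 signals (vertical axis) between each immunoproteasome transcript and the subunit it replaces, in each of 48 pigs by group (horizontal axis). Squares and bars are the mean and SD of 12 pigs. Low RFI groups (circles) have lower means than high RFI groups (triangles) in each panel, with ranges that overlap.

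No proteasome transcript was a DEG between lines, where 1.17% of all genes were called, although *PSMB6* was called, as higher in low RFI pigs, with the replicate number as a block (limma adjusted p = 0.0503) and with array weights (adjusted p = 0.0598). At an unadjusted p under 0.05 there were 4 of 40, beside 1137 of 11106 genes, and the smallest adjusted p was 0.194, for *PSMB6*. Its level had a median of 6.02 (5.33 to 6.47) in low RFI pigs and 5.85 (5.39 to 6.20) in high RFI pigs, which made a log2 fold change of 0.19 (SE 0.07), and its 4 probes gave between 0.17 and 0.20. In low minus high RFI, 33 of 40 members and 6508 of 11106 genes lay above 0. All 7 constitutive beta subunits and all 6 ATPases (5 after quantile normalization) were among those above 0 and *PSMB8*, *PSMB9* and *PSMB10* among those below, and the difference in sign was not tested. *PSMB8* had a median of 1.36 (0.98 to 3.34) in low RFI pigs and 1.82 (1.04 to 2.99) in high RFI pigs, a log2 fold change of -0.34 with a 95% interval from -0.69 to 0.01 (limma adjusted p = 0.512), and gave -0.54 within the first scan date and -0.14 within the second. *PSMB9* gave -0.11 (SE 0.11) and *PSMB10* -0.06 (SE 0.08). Of 7 macrophage markers 6 lay below 0 in the same contrast (median -0.16), as did all 5 fibroblast markers (median -0.11), while 6 of 8 lymphocyte markers (median 0.09) and 8 of 13 interferon and antigen presentation genes (median 0.03) lay above 0, and none was called. The summed level of the macrophage markers ran from 21.0 (median 40.9) to 117.6 in low RFI pigs and from 30.02 (median 47.3) to 95.5 in high RFI pigs. The part of these markers in the result was not tested.

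The diet response was next compared between the lines. No member had a diet by line interaction, as 0% of all genes did (limma), and 0 of 40 reached an unadjusted p under 0.05, beside 99 of 11106 genes. Within low RFI pigs 2 members were called lower, *PSMD7* (-0.20, adjusted p = 0.0458) and *PSMD12* (-0.20, adjusted p = 0.0576), against 1.84% of all genes. Within high RFI pigs only *PSMD7* was called (-0.18, adjusted p = 0.0777), against 1.25% of all genes. These calls were lost in many of the 17 alternative settings, where the count was lower in 8 for the low RFI line and in 11 for the high RFI line, among them 75th percentile scaling, quantile normalization and the position block, which gave 0 in each line. The 10 DEG of the joint contrast were below 0 in each line. *PSMD14* gave -0.21 in the low RFI line and -0.30 in the high RFI line, *PSMD1* -0.26 and -0.20, *PSME4* -0.24 and -0.16, and *PSMA5* -0.23 and -0.14. The 95% interval of the interaction was wide beside the diet changes themselves, running from -0.17 to 0.14 for *PSMD7*, from -0.20 to 0.13 for *PSMD12* and from -0.30 to 0.46 for *PSMD14*, so that 12 pigs a group do not show whether the lines responded alike.

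A probe of *PSMD1* stood apart from the others of its gene and was singled out after its values were seen. The gene had 8 kept probes, all of which were lower in HF pigs, by between -0.26 and -0.17. By line, 7 of them gave between 0.02 and 0.20, whereas probe A_72_P613951 gave 0.84 (SE 0.19, with a limma adjusted p = 0.0122 over all probes, of which 1.37% were called by line). Its level ran from 1.48 (median 2.31) to 2.77 in low RFI pigs and from -0.70 (median 1.61) to 2.66 in high RFI pigs. The low tail belonged to 5 high RFI pigs, 2 under the HF and 3 in LF pigs, which lay between -0.70 and 0.36, while each of the other 43 pigs lay at 1.32 or above. It was the only member probe called by line.

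The last 25 bases of that probe also begin probe A_72_P189146, and 21 of them begin probe A_72_P472637. The stretches are set side by side because the shared part cannot by itself tell the probes apart. Capitals mark the bases shared with the first probe, or, in the first, with the second.
PSMD1, probe A_72_P613951, bases 31 to 60: tattaAAATCTCCAGATGGACCAGGACTTG
PSMD1, probe A_72_P189146, bases 1 to 30: AAATCTCCAGATGGACCAGGACTTGttttt
PSMD1, probe A_72_P472637, bases 1 to 30: CTCCAGATGGACCAGGACTTGtttttcagc
The probes that share this stretch gave log2 fold changes by line of 0.17 and 0.20, and neither was called. They thus lay in the same direction as the first probe, at a smaller size, and were the highest of the other 7. For the probe that gave 0.20, the level ran from -1.41 (median -0.90) to -0.53 in low RFI pigs and from -1.98 (median -1.09) to -0.68 in high RFI pigs.

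**Figure D4:**
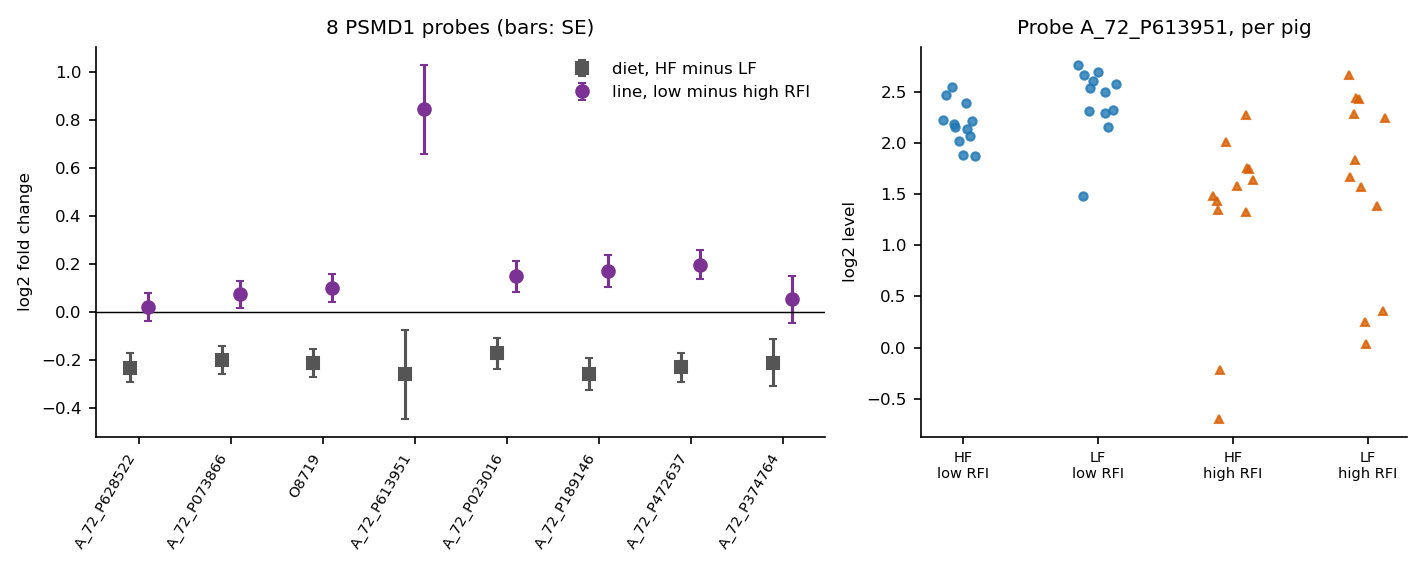
Left, log2 fold change by diet (squares) and by line (circles) of the 8 kept *PSMD1* probes, with standard errors as bars. Right, log2 level of probe A_72_P613951 in each pig by group, where 5 high RFI pigs lie between -0.70 and 0.36.

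Subunits of a complex are often transcribed in step, so the members were correlated over the 48 pigs after the mean of each group had been removed. This is a description without a p, since arrays share slides and array quality. The median Pearson r over the 780 pairs of members was 0.37 (Spearman 0.37), against 0.01 over all pairs of genes, and it was 0.33 when slide means were removed as well. The core was tightest, with a median r of 0.71 over constitutive beta pairs and 0.65 over alpha pairs. The immunoproteasome pairs gave 0.59, the base pairs 0.53, the lid pairs 0.43 and the ATPase pairs 0.33. Once slide means were removed, the lid gave 0.41 and the ATPases 0.46, so that these classes have no fixed order. The lid subunit *PSMD12* had a median r to the other members of 0.05 (0.10 without slide means). *PSMD7* gave 0.23, but 0.34 without slide means, and the pair had an r of 0.23 with each other. *PSMD1* gave 0.49, and *PSMB2*, a structural beta subunit that was not called, gave the highest median, 0.62. Without slide means *PSMB4* was highest, at 0.55, and *PSMB2* gave 0.54.

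Among the members, the immunoproteasome subunits varied most closely with each other and with the interferon-induced activator. *PSMB9* and *PSMB10* had an r of 0.91 and *PSME1* and *PSME2* one of 0.91, and the median between the 3 immunoproteasome subunits and these 2 activators was 0.79. With the other members it was 0.11, and -0.07 once slide means were removed. The activator was less set apart. *PSME1* and *PSME2* had a median r to all other members of 0.26 and 0.29 (0.09 and 0.23 without slide means). *PSME1* reached 0.52 with *PSMA3*, and *PSME2* reached 0.56 with *PSMA5*. *PSMB8*, *PSMB9* and *PSMB10* varied little with the subunits that they replace, with r of 0.05 (Spearman 0.27), -0.15 and 0.04. They did vary with immune transcripts. Their median r was 0.56 with 13 genes of interferon response and antigen presentation, 0.49 with 7 macrophage markers and 0.47 with 8 lymphocyte markers, where the remaining members gave -0.02, -0.07 and -0.05. With adipocyte markers it was -0.06 for the immunoproteasome subunits and 0.15 for the remaining members.

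**Figure D5:**
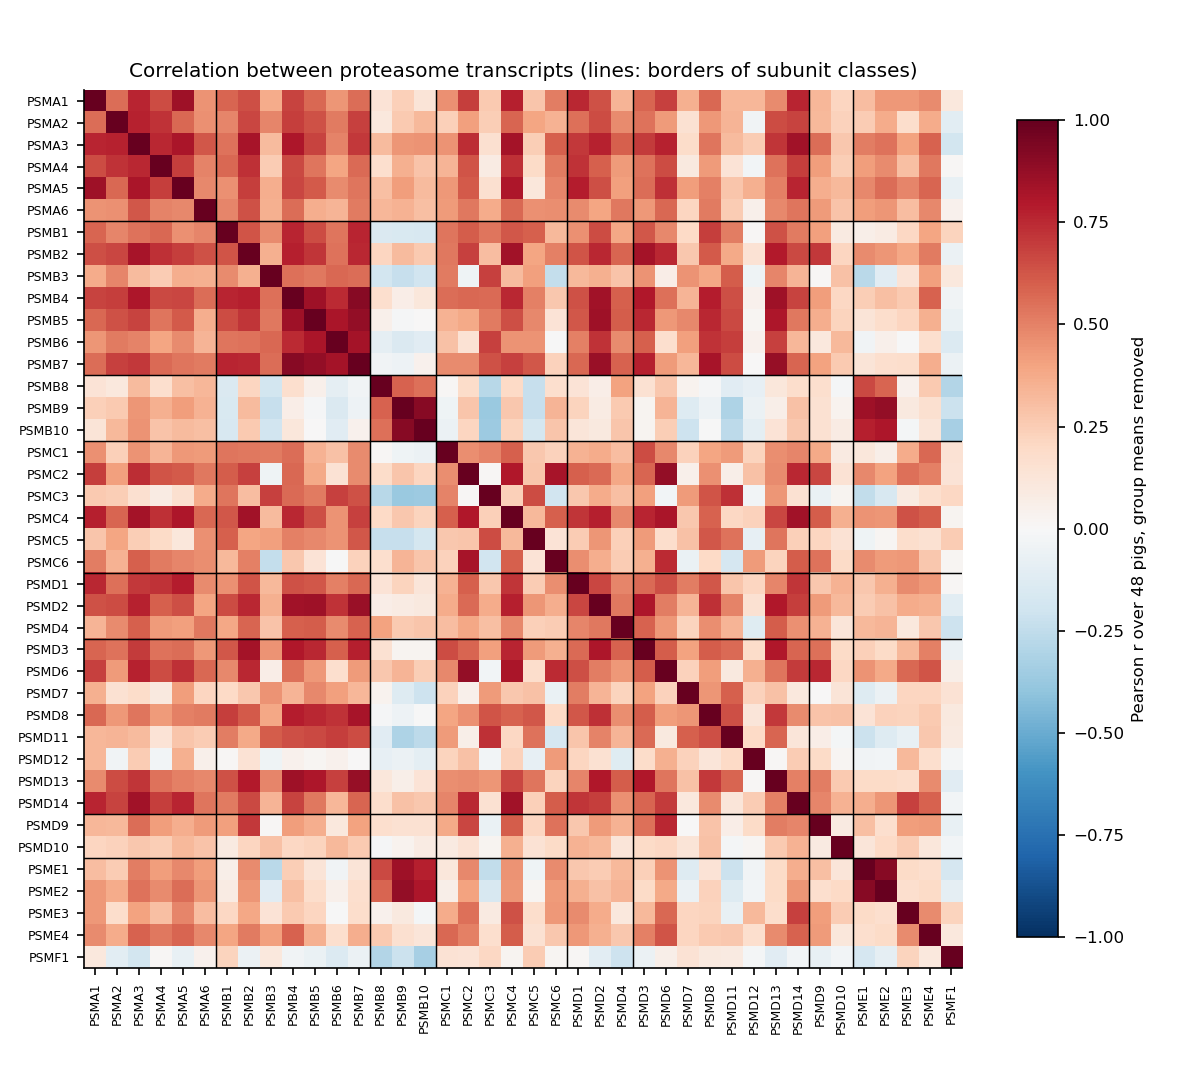
Pearson correlation between the 40 proteasome transcripts over 48 pigs after removal of group means (red positive, blue negative), with lines at the borders of subunit classes. The core subunits form a dense red block, and *PSMB8* to *PSMB10* are red mainly with each other and with *PSME1* and *PSME2* (median r 0.79).

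Genes that serve the proteasome without belonging to it were read from the same fit, in which 9.35% of all genes were called lower by diet and 12.6% in either direction, with a median of -0.04. Each list held at most 2 called genes, which are named for their own values and not as a result about the list. Among them, *RAD23B* and *VCP* had also been listed by the study as lower, partly from these same samples. Of 5 further assembly chaperones 1 was called by diet, *PSMG1*, which helps to build the alpha ring, at 3.32 ± 0.20 (SD, n = 24) in HF pigs and 3.501 ± 0.15 in LF pigs (log2 fold change -0.18, SE 0.05, limma adjusted p = 0.0174). Of 7 proteasome-bound proteins 1 was called, *AKIRIN2*, which carries proteasomes into the nucleus, at 1.47 ± 0.22 and 1.86 ± 0.24 (-0.39, SE 0.07, adjusted p = 0.000143), with 22 of 24 LF pigs above the HF mean and 0 HF pigs above the LF mean. Of 6 ubiquitin shuttles 1 was called, *RAD23B*, at 4.70 ± 0.16 and 4.94 ± 0.17 (-0.24, SE 0.05, adjusted p = 0.00082). Each of the 3 was lower in HF pigs, and their lists had medians of -0.05, -0.10 and -0.09.

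Around NFE2L1, 2 of 9 genes were down-regulated, and the median of the list was -0.06. *VCP*, the unfolding ATPase that extracts NFE2L1 from the endoplasmic reticulum, gave 6.08 ± 0.18 in HF pigs and 6.26 ± 0.18 in LF pigs (-0.18, SE 0.05, limma adjusted p = 0.0223). *MAFG*, a partner with which NFE2L1 binds DNA, gave 3.59 ± 0.40 and 4.04 ± 0.29 (-0.45, SE 0.10, adjusted p = 0.00185). *NFE2L1* itself gave -0.09 (adjusted p = 0.415). Of 6 ubiquitin precursor and activating enzyme genes 1 was called, the ubiquitin gene *UBB*, which was up-regulated, at 8.13 ± 0.18 and 7.93 ± 0.22 (0.19, SE 0.06, adjusted p = 0.021). None of the 13 interferon and antigen presentation genes was called by diet, and no gene of these lists was called by line.

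Markers of the cell types that the tissue can hold were read beside the diet result. Of 6 adipocyte markers 1 was lower in HF pigs, the adipokine *LEP* (-0.67, SE 0.16, limma adjusted p = 0.00507), and the summed level of the list ran from 1980 (median 2382) to 2807 in HF pigs and from 2003 (median 2469) to 2836 in LF pigs. Of 5 fibroblast markers 1 was higher, the progenitor receptor *PDGFRA* (0.31, SE 0.11, adjusted p = 0.0672), and their summed level ran from 988 (median 1382) to 1768 in HF pigs and from 786 (median 1227) to 2150 in LF pigs. All 5 fibroblast markers lay above 0 (median 0.18) and all 6 skeletal muscle markers below 0 (median -0.21). No macrophage, lymphocyte, endothelial, skeletal muscle or blood cell marker was called. The part of these marker changes in the proteasome result was not tested.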

How the data were processed

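Total RNA of each pig was turned into Cy3-labelled complementary RNA and hybridized to a custom porcine array, which the authors read with Agilent Feature Extraction 10.7.3.1. Their deposited scanner output gives spot intensity on a linear scale, and its background-subtracted signal was used here. The authors also deposited log2 values of the median signal for 38987 probes, made in R 2.10.0 and centred on each array's median, which served as an alternative. Here, 227 spots flagged as non-uniform or outliers were set missing, and a probe was kept (44356 in all) if 9 or more arrays of any group of 12 read it as well above background. Each array was centred on its median log2 signal. Probes were named through the gene tables of the reference and the array files, and the brightest kept probe stood for its gene, which left no missing value among the members. Diet, line and interaction were fitted to all 48 arrays with limma 3.58.1 in R 4.3.3 (eBayes with an intensity trend), after tests on simulated data. Catalytic pairs were compared by permutation within the other factor (100000 resamples). Correlations and marker sums are descriptions. The members and gene lists were chosen with earlier results of these data known, and several members had been picked by the study from these samples. Full values are given for the DEG, the catalytic subunits and their partners, the activators, *POMP*, the lowest and highest diet value of each class, and the called genes of the other lists. The array files place the probes on no chromosome, and promoter sequences were not analysed here.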

Additional observations from a re-analysis of the deposited data

How the results depend on the processing

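Under 75th percentile scaling, quantile normalization and the array position block, 3 of 40 members were called by diet in place of 10, and within the first and second scan dates, with 24 arrays each, 3 and 2 were. Under the other settings the diet count stayed between 7 and 14. The replicate numbers were not taken as pairing the samples, since over 72 same-number pairs the correlation of their deviations ran from -0.218 to 0.454 and only 45 exceeded 0.1. The median was 0.166, however, against 0.062 for other numbers on the same slide and -0.026 for other numbers, and 18 of 48 arrays correlated best with their own number, a hint from the data and not from the design. With the replicate block, 12 members were called by diet and 1 by line (*PSMB6*), and array weights also gave 1 by line. Within low RFI pigs, where 2 members were called, the count was 0 under 75th percentile scaling, quantile normalization, the position block and in each scan date, 1 with the median signal, with no filter on dim probes and without the 5 dimmest arrays, 5 with the replicate block and 6 with array weights. Within high RFI pigs, where 1 was called, it was 2 with the replicate block and with array weights, and 0 under 75th percentile scaling, quantile normalization, normexp, the median signal, the deposited table, no filter, the stricter filter, the position block, in each scan date and without the 5 dimmest arrays. Leaving out those 5 arrays, 4 of HF pigs and 1 of an LF pig, was chosen after seeing the data and gave 10 diet calls, of which 9 were shared with the 10 above. The log2 fold changes by diet that changed sign were as follows. Quantile normalization gave 0.0099 for *PSMB4*, 0.028 for *PSMB7*, 0.011 for *PSMC3*, 0.027 for *PSMC5*, 0.018 for *PSMD13* and 0.026 for *PSME2*, and 75th percentile scaling gave 0.011 for *PSMC5*. The mean of all probes gave 0.017 for *PSMC5* and 0.0039 for *PSMD13*. *PSMB8* was -0.043 with the position block, -0.092 in the second scan date and -0.040 without the dimmest arrays, which also gave -0.012 for *PSMB9* and -0.040 for *PSMD4*. *PSMD4* was -0.00038 with the median signal, -0.0031 with no filter, -0.040 with array weights and -0.044 in the first scan date. *PSMA2* was 0.0030 in the first and *PSME2* 0.0025 in the second scan date, and *PSMB10* by line was 0.013 in the first. The fits within scan dates hold fewer samples, and for the other changes the cause was not tested. The 3 catalytic pairs stayed on the same side of the threshold under the 3 settings tried. The planned count of promoter motifs was not run. Dim probes such as that of *PSMF1* lie near background, and the number of arrays limits the precision.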
